A study of Coryphaena hippurus with 21 samples.

Results

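The source oil dose series covered 4 groups of mahi-mahi (Coryphaena hippurus), each with 3 small RNA libraries made from whole larvae 48 hours after fertilization (48 hpf). Embryos from a captive broodstock caught off Miami were placed, soon after spawning, in clean seawater (control, 0%) or in seawater with 0.125% (source L), 0.25% (source M) or 0.5% (source H) of HEWAF, the high-energy water-accommodated fraction made by blending oil into seawater. Exposures were static, with no renewal of the water, so the concentrations are the nominal ones at the start. Pooled samples gave the RNA, and with no label that ties libraries to separate beakers, a p-value here measures only how far these libraries spread. The exposed samples carry the word mass in their titles and were read as the source oil group, since slick and source oil are the only oils the series text names.

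The members are miRNA names that stand in all 3 source oil count tables and have a count above 0 in each of the 12 libraries. These were 108 of 280 names in any of the 3 tables and of 329 in the whole series, and 20 further names stood in all 3 tables with a 0 somewhere. They fall in 81 of 88 family numbers, carry the prefixes of 27 species (ola for medaka, dre for zebrafish, ssa for salmon and so on), and held 84.2 to 91.0% of the joined counts of a library. A filter on low counts left 104 members for testing, and dre-miR-2184, hsa-miR-3074-5p, ssa-miR-1788-5p and tgu-miR-219b were too low. A miRNA is a short RNA that guides Argonaute proteins to messenger RNAs carrying a match to its seed, the bases near its 5′ end, and so lowers the output of those messages. In a fish larva that has just formed its heart, trunk muscle and brain, many miRNAs are strongly tied to 1 tissue, such as miR-206 to skeletal muscle, miR-9 and miR-124 to the nervous system and miR-122 to liver. In a whole larva, fewer cells of a tissue and less RNA per cell cannot be told apart.

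Libraries held 3157670 to 8660114 counts over all names listed, and the smallest was H3 of source H. Library names are those of the count columns (C4 to C6, L1 to L3, M1, M3 and M5, H1 to H3), which do not follow the numbers in the sample titles. A column M5 also stands in the slick oil table of the middle dose, and among names above 0 in either M5, 0 had the same count in both, so these are different libraries. Families typical of muscle, nerve, endothelium, blood, cartilage, epithelium, eye, liver, gut and pancreas were counted. Of these, miR-208 and miR-451 were looked for and not listed for any source oil dose. At least 1 library held a 0 for miR-1, miR-138, miR-144, miR-140, miR-183, miR-122, miR-192 and miR-216. A name not listed for a dose was set to 0 in the exposed libraries of that dose, so such a 0 need not be a count. Control values were taken wherever a name was listed, so the control and exposed ranges that follow are not fully comparable. Per 1000000 of all counts listed in a library, without the scaling factors used for the levels below, the neural families summed to 308000 to 311000 in control and 151000 to 319000 in the exposed libraries, and the muscle and heart families to 181000 to 286000 and 240000 to 474000. On the same scale epithelium held 31100 to 50000 and 5800 to 41300, eye 20000 to 37500 and 8990 to 41300, and pancreas 3270 to 15500 and 3380 to 20100. Endothelium held 4690 to 6530 and 631 to 12400, blood 1010 to 1180 and 565 to 1160, cartilage 959 to 1110 and 0 to 1780, and liver 0 to 4300 and 0 to 13100, while gut reached 10900 in control and 5130 in the exposed libraries. Their part in the results below was not tested.

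Before any dose was compared, 1 library stood apart from its group. Levels are given as CPM, counts per 1000000 counts of a library over the joined names that were tested. These library sizes were scaled by the TMM factors of edgeR. On the first principal component of log2 CPM, which held 53.6% of the variance, source L libraries L1 (-6.0) and L2 (-5.78) lay beside the controls (-6.41 to -6.28), and L3 (4.34) lay among the source M and source H libraries (1.43 to 6.35). The lowest of the latter was M5. The median SD of log2 CPM over members was 0.23 in control, 0.47 in source L, 0.40 in source M and 0.45 in source H. Counts of calls that use source L are therefore also given without L3. Of these, the counts without L3 by DESeq2, for any difference among groups, for overlap and for family totals in source L were chosen after seeing the data.

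**Figure D1:**
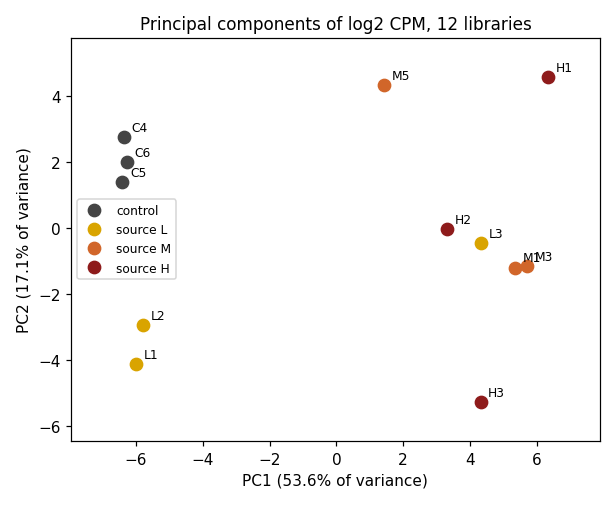
Principal components of log2 CPM over the tested members, 1 point per library, with the share of variance on each axis and colour for the group. Libraries L1 and L2 sit with the 3 controls at the left, and L3 sits at 4.34 among the source M and source H libraries.

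Of the members called over the dose series, more fell than rose. With the level of each miRNA put on a straight line over concentration, 22 of 104 members were called at an adjusted p under 0.05 in edgeR's quasi-likelihood test, 21 lower and 1 higher with dose, against 18.2% of all 121 names tested. The single riser was ola-miR-187, and the fallers included names of the miR-130, miR-454, miR-301, let-7, miR-196, miR-17-92, miR-9, miR-135, miR-26, miR-27 and miR-199 families. Values of the slope are the fitted log2 change from 0 to 0.5%, with an approximate standard error (SE).

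Dose by dose, source L against control called 0 of 104 members (0.826% of all names) by edgeR, with 13 at an unadjusted p under 0.05 and a smallest adjusted p of 0.132, while DESeq2 called 4 (0 and 2 without L3). Source M called 17, 5 higher and 12 lower (14.9% of all names). Source H called 27, 5 higher and 22 lower (23.1%). These comparisons share the 3 control libraries. The 3 libraries of the exposed group all lay on 1 side of the 3 controls for 36 members in source L (33.1% of all names; 56 for L1 and L2 alone, where fewer libraries are compared), 67 in source M (58.7%) and 63 in source H (59.5%). Between neighbouring doses, source M against source L called 3 members, all higher in source M (2.48%). That direction did not hold in every fit. DESeq2 called 19 (5 higher, 14 lower), the members tested alone 10 (3 and 7) and the fit without L3 29 (10 and 19). Most calls were higher with RLE size factors (3 and 1), total counts as scaling (3 and 0) and scaling without miR-206 and miR-9 (4 and 1). Source H against source M called 1, lower in source H (0.826%). A test of any difference among the 4 groups called 12 (10.7%), and 39 without L3. All 22 slope calls were also made without L3, where 29 were called.

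These counts depended on the libraries and the scaling, though no miRNA named for its slope changed direction under the alternatives run for single names. Scaling by total counts called 11 for the slope (2 higher, 9 lower), scaling without the miR-206 and miR-9 families called 24 (10 and 14) and DESeq2 called 38 (16 and 22). RLE size factors moved source M to 10 higher and 9 lower and source H to 14 and 17, and shifted the median of all names by 0.22 (log2) in source H. Slope calls numbered 8 without C4, 1 without C5, 8 without C6, 9 without L1, 11 without H1, 10 without H2 and 12 without H3, and 0 without L2 or M1 (38 and 43 members at an unadjusted p under 0.05). Source M calls numbered 0 without C4, C6 or M3 (36, 34 and 34 at an unadjusted p under 0.05), 2 without C5, 11 without L1, 7 without M1, 5 without H2, 43 without L3 and 30 without M5. Source H calls numbered 0 without C6, H2 or H3 (34, 38 and 37 at an unadjusted p under 0.05), 5 without C4, 2 without C5, 7 without H1 and 13 without M3.

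The miR-130, miR-301 and miR-454 families, whose main arms share a seed in vertebrates, formed the list with the most calls. The names hsa-miR-130b-5p, ssa-miR-301a-5p and dre-miR-301c-5p carry a 5p arm label, and whether every name of the list has that seed was not tested. Of 6 members 4 fell with the slope, 5 fell in source M and 5 in source H, and 0 rose, beside 18.2, 14.9 and 23.1% called of all names. The median slope of the 6 was -1.77 (log2), against -0.06 over all names tested. The most abundant of them in control, hsa-miR-130b-5p, had a slope of -0.64 (adjusted p = 0.411). The summed counts of the miR-130 family, scaled apart from the single names, had a slope of -0.545 (adjusted p = 0.431).

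The name ola-miR-130c measured 128.1, 239 and 187 CPM in the controls, 136, 163 and 35.5 CPM in L1, L2 and L3, 65.6, 53.6 and 58.6 CPM in source M and 33.8, 40.6 and 39.1 CPM in source H. All 6 libraries of the higher doses and L3 lay below every control, and L1 and L2 lay within the control range. Its slope was -2.29 (SE 0.45, adjusted p = 0.0171), with -1.64 (SE 0.48, adjusted p = 0.0489) in source M and -2.29 (SE 0.49, adjusted p = 0.0203) in source H. The catfish name of the same family, ipu-miR-130c, went from 311 ± 48.9 CPM (SD, n = 3) in control to 182.6 ± 99.3 in source L, 72.4 ± 22.9 in source M and 73.4 ± 9.03 in source H. Its level was thus as low at 0.25% as at 0.5%, where it fell by 2.08 on the log2 scale (SE 0.43, adjusted p = 0.0203).

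The carp name ccr-miR-454b gave the steepest line after ola-let-7g. It measured 557, 860 and 762 CPM in the 3 controls, 668, 444 and 67.1 CPM in source L, 79.2, 77.4 and 288 CPM in source M and 38.6, 88.8 and 103 CPM in source H. The groups of the 2 higher doses did not overlap control, M5 was the highest of the 6, and L3 was below most of them. The slope was -3.28 (SE 0.74, adjusted p = 0.0194), and source H fell by 3.24 (SE 0.85, adjusted p = 0.0316), while the value of -2.29 in source M had an adjusted p of 0.0818.

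The names ssa-miR-301a-5p and dre-miR-301c-5p were lower than every control in all 9 exposed libraries. For ssa-miR-301a-5p the controls held 2240, 1986 and 2157 CPM, source L 1127, 1439 and 722 CPM, source M 484, 478 and 828 CPM and source H 866, 855 and 494 CPM. Here L1 and L2 already lay well under control, unlike for ola-miR-130c. The log2 fold change was -0.96 (SE 0.33, adjusted p = 0.291) in source L (-0.70, adjusted p = 0.433, without L3), -1.83 (SE 0.34, adjusted p = 0.0222) in source M and -1.53 (SE 0.34, adjusted p = 0.0218) in source H. The arm name hsa-miR-130b-5p was lowest at the middle dose, with 2794 ± 310 CPM in control, 2652 ± 1004 in source L, 885 ± 274 in source M and 1951 ± 564 in source H. It fell in source M (-1.66, SE 0.37, adjusted p = 0.0303), and in source H its log2 fold change was -0.52 (adjusted p = 0.304).

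**Figure D2:**
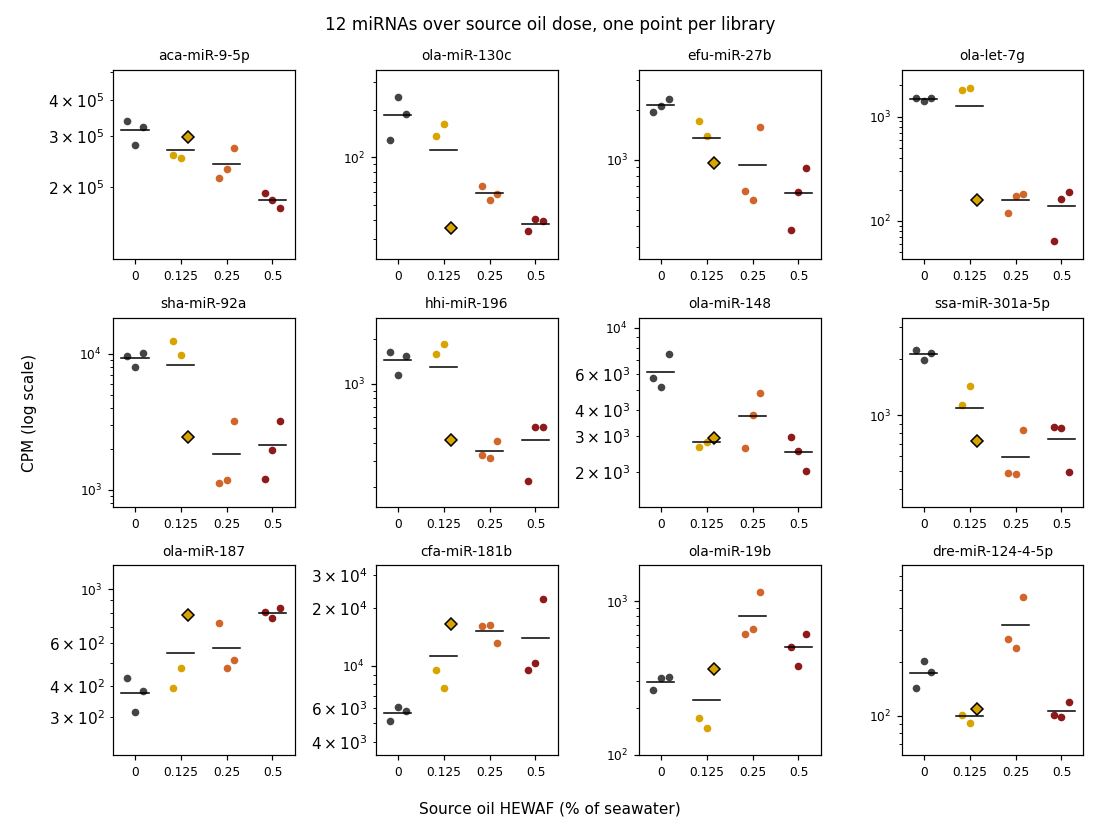
CPM on a log scale against the source oil concentration for 12 miRNAs, 1 point per library, with a bar at each group mean and a black-edged diamond for library L3. ola-let-7g falls from 1402 to 1515 CPM in control to 64.5 to 188 CPM at the higher doses with L3 at 158 CPM, while dre-miR-124-4-5p is highest at 0.25%.

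The let-7 family accumulates as cells leave proliferation and differentiate. Of its 4 members 2 fell with the slope and 0 rose, beside 18.2% called of all names tested. The other 2 had slopes above 0 that did not pass. The medaka name ola-let-7g measured 1515, 1402 and 1515 CPM in the 3 controls, 1782, 1874 and 158 CPM in source L, 118, 175 and 182.4 CPM in source M and 64.5, 161 and 188 CPM in source H. L1 and L2 exceeded every control, and L3 and the 6 libraries of the higher doses lay between 64.5 and 188 CPM. Its slope of -3.79 (SE 0.91, adjusted p = 0.021) was the steepest of the members called, and it fell by 3.22 in source M (SE 0.78, adjusted p = 0.0454) and by 3.42 in source H (SE 0.79, adjusted p = 0.0243). The scarce ola-let-7e went from 7.32 ± 1.72 CPM in control to 5.16 ± 3.51, 2.80 ± 0.69 and 1.52 ± 0.88 CPM over the doses (slope -2.31, SE 0.61, adjusted p = 0.0296).

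Against these, mse-let-7a, the most abundant let-7 member, measured 4504, 3227 and 4037 CPM in the 3 controls, 6661, 5351 and 8326 CPM in source L, 11910, 11490 and 4320 CPM in source M and 6232, 7606 and 15580 CPM in source H. All exposed libraries but M5 lay above the highest control. Its slope of 1.22 (SE 0.48) had an adjusted p of 0.105. The name ssc-let-7i stayed between 427 and 894 CPM in the 12 libraries (slope 0.32, adjusted p = 0.394). The share of ola-let-7g in the summed CPM of the 4 members was 22.8 to 27.7% in control, 19.9% in L1, 24.0% in L2, 1.68% in L3 and 0.913 to 3.61% in source M and source H. The sum itself was 5933 ± 800 CPM in control, 8715 ± 813 in source L, 10010 ± 4306 in source M and 10640 ± 5055 in source H.

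**Figure D3:**
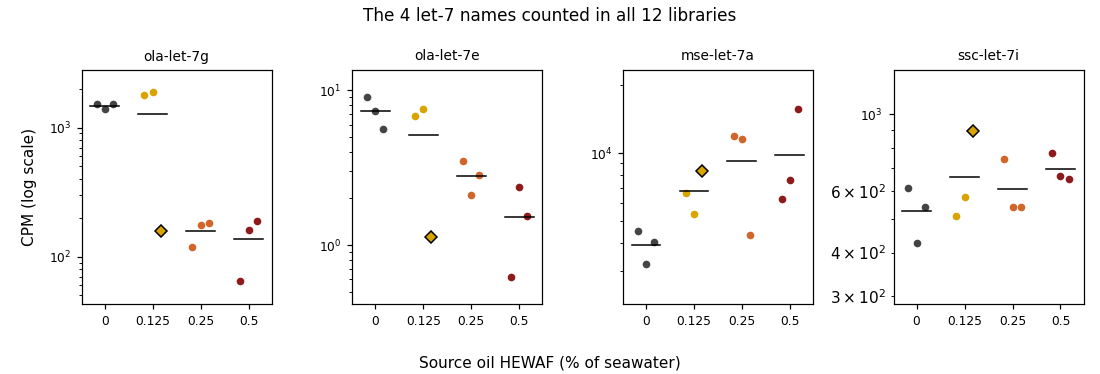
CPM on a log scale of the 4 let-7 names counted in all 12 libraries, 1 point per library, with a bar at each group mean and a black-edged diamond for L3. The names ola-let-7g and ola-let-7e are lower at 0.25 and 0.5% and in L3, and mse-let-7a is higher there in all libraries but M5, which holds 4320 CPM.

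Of 4 members of families that lie in the Hox clusters, 1 fell with the slope and 0 rose, near the 18.2% called of all names tested. The halibut name hhi-miR-196, whose family targets Hox messages in vertebrates, measured 1651, 1155 and 1548 CPM in the 3 controls, 1581, 1869 and 418 CPM in source L, 329, 313 and 413 CPM in source M and 221, 511 and 511 CPM in source H. L3 lay with the higher doses, and L1 and L2 with or above control. It fell by 2.05 in source M (SE 0.52, adjusted p = 0.046) and by 1.81 in source H (SE 0.52, adjusted p = 0.0465). The finch name tgu-miR-196 had L1 and L2 above every control and L3 and the 6 libraries of the higher doses below every control, at 2759 ± 433 CPM in control, 1080 ± 197 in source M and 1002 ± 490 in source H, with adjusted p = 0.0594 for a slope of -1.68.

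Names of the miR-17-92 clusters, which are known for promoting cell proliferation, went both ways. Of 10 members 3 fell with the slope and 0 rose, 2 rose and 2 fell in source M, and 2 fell in source H, with a median slope of -0.41. Over all names tested, 18.2, 14.9 and 23.1% were called in these comparisons. The name oan-miR-20a-5p measured 2488, 3912 and 3735 CPM in the 3 controls, 3458, 2244 and 841 CPM in source L, 680, 959 and 1575 CPM in source M and 351, 764 and 1067 CPM in source H. Its group means descended dose by dose, with L1 within the control range and L3 among the higher doses. The slope was -2.24 (SE 0.52, adjusted p = 0.0194). The name sha-miR-92a measured 9689, 7940 and 10130 CPM in the 3 controls, 12300, 9849 and 2451 CPM in source L, 1117, 1176 and 3202 CPM in source M and 1190, 1952 and 3213 CPM in source H. L1 was the highest of the 12 libraries, and no library of the higher doses reached a control (slope -2.36, SE 0.71, adjusted p = 0.0393).

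The name ssa-miR-18a-5p moved like sha-miR-92a but less, from 9837 ± 669 CPM in control and 8950 ± 3148 in source L to 4887 ± 700 in source M (-1.01, SE 0.29, adjusted p = 0.0489) and 5331 ± 564 in source H (-0.88, adjusted p = 0.0568). The risers of source M were ola-miR-19b and ssa-miR-19c-4-5p, whose counts were near alike, so they may share reads. The name ola-miR-19b measured 263, 316 and 319 CPM in the 3 controls, 172, 149 and 360 CPM in source L, 609, 663 and 1142 CPM in source M and 505, 379 and 615 CPM in source H. All 6 libraries of the higher doses exceeded control and source L. It rose by 1.43 in source M (SE 0.38, adjusted p = 0.046), and its value in source H was 0.74 (adjusted p = 0.184).

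Of 13 neural members 3 fell with the slope and 0 rose, near the 18.2% called of all names tested. Their median slope of 0.03 was near that of all names. The most abundant of them, aca-miR-9-5p, of a family made in neural progenitors, measured 339200, 280600 and 321800 CPM in the 3 controls, 258100, 252100 and 297100 CPM in source L, 215300, 231800 and 273900 CPM in source M and 190800, 180800 and 169400 CPM in source H. Every source H library lay under every library of the other groups, and L3 was the highest of source L, on the control side. The slope was -0.79 (SE 0.14, adjusted p = 0.0144), the smallest adjusted p of the members, and source H fell by 0.80 (SE 0.15, adjusted p = 0.0191). Over 21 alternatives, among them other scalings and fits without single libraries, the slope stayed between -0.48 and -0.83, with adjusted p from 0.000158 to 0.0974. Its call held in 18 of the 21. Other slope calls held in fewer, with 9 for sha-miR-92a and ola-miR-135b, 11 for cgr-miR-26a and aca-miR-199a-5p, 12 for ola-let-7e and 13 for ola-miR-187. The miR-9 family total, which holds only aca-miR-9-5p under the scaling of the totals, had a slope of -0.58 (SE 0.25, adjusted p = 0.107).

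Of the 3 miR-135 names of the neural list, of a family that lowers the Wnt inhibitor APC in human cells, 2 fell with dose, and sha-miR-135a had a slope of -0.36 (adjusted p = 0.483). The name ola-miR-135b went from 726 ± 83.1 CPM in control to 659 ± 287 in source L, 437 ± 110 in source M and 329 ± 71.0 in source H (slope -1.21, SE 0.33, adjusted p = 0.0318). The name ola-miR-135a measured 367, 317 and 370 CPM in the 3 controls, 347, 307 and 77.5 CPM in source L, 96.9, 82.6 and 224 CPM in source M and 73.1, 115 and 124.5 CPM in source H (slope -1.77, SE 0.50, adjusted p = 0.0334). For these 2 names, L1 and L2 lay at control level and L3 at the level of the higher doses. The brain miRNA mdo-miR-128a-5p had overlapping groups in source H, with 18310 ± 5215 CPM in control, 10960 ± 4321, 7477 ± 3356 and 13290 ± 3427 CPM over the doses, and a slope of -0.37 (SE 0.47, adjusted p = 0.612).

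The zebrafish name dre-miR-124-4-5p, from a precursor of the neuronal miR-124, was the only member called for a departure from the line (adjusted p = 0.0121, 0.826% of all names tested). It measured 143, 202 and 176 CPM in the 3 controls, 102, 91.0 and 109 CPM in source L, 267, 239 and 458 CPM in source M and 100.5, 98.8 and 120 CPM in source H. The source M libraries lay above all others, and the source L and source H libraries below every control. It rose by 0.89 in source M against control (SE 0.26, adjusted p = 0.0489) and by 1.68 against source L (SE 0.27, adjusted p = 0.0133), and source H lay 1.60 under source M (log2 fold change -1.60, SE 0.27, adjusted p = 0.0194). The other name of the family, sma-miR-124b-5p, was scarce at 2.00 ± 0.73 CPM in control and 4.96 ± 0.78 in source H (slope 1.17, adjusted p = 0.207). The departure was not called without L2 (18 members at an unadjusted p under 0.05) or without M1 (16), and 8 members were called without L3. The step down from source M to source H was not called without L2, M1, H1 or H2 (9, 14, 10 and 7 members at an unadjusted p under 0.05), and 2 members were called without H3.

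Of 12 members of the endothelium and smooth muscle list, 1 fell with the slope and 0 rose (18.2% of all names tested were called), and the median slope was 0.39. The 3 miR-24 names of this list hold the same counts, and ccr-miR-221 and gga-miR-221-5p nearly the same. The median thus counts some reads more than once. The faller was efu-miR-27b, of a family that promotes vessel sprouting, with 1939, 2102 and 2316 CPM in the 3 controls, 1711, 1394 and 954 CPM in source L, 654, 572 and 1571 CPM in source M and 381, 642 and 888 CPM in source H. All 9 exposed libraries lay below control, with L3 below L1 and L2 and M5 far above M1 and M3. Its slope was -1.70 (SE 0.40, adjusted p = 0.0194). The endothelial tgu-miR-126-5p measured 5906, 6525 and 6108 CPM in the 3 controls, 16340, 10200 and 3346 CPM in source L, 1863, 1732 and 2506 CPM in source M and 699, 3760 and 4156 CPM in source H. L1 and L2 lay above and L3 and the higher doses below every control, and the slope of -1.62 (SE 0.81) had an adjusted p of 0.212.

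Among abundant or connective tissue members, cgr-miR-26a, a widely made miRNA, measured 48030, 49960 and 46710 CPM in the 3 controls, 48920, 45840 and 22130 CPM in source L, 22280, 19960 and 28950 CPM in source M and 23700, 20880 and 18960 CPM in source H. Its libraries fell into a set from 45840 to 49960 CPM, with L1 and L2, and a set from 18960 to 28950 CPM, with L3. The slope was -1.23 (SE 0.30, adjusted p = 0.0216), with -1.02 in source M (adjusted p = 0.0489) and -1.19 in source H (adjusted p = 0.0316). Another abundant name of this family, aca-miR-26-5p, is no member because M3 held a count of 0. The mesenchymal aca-miR-199a-5p, 1 of 3 tested members of the cartilage and connective tissue list, went from 10310 ± 845 CPM in control to 7158 ± 3351, 5098 ± 2044 and 3892 ± 791 CPM over the doses (slope -1.38, SE 0.37, adjusted p = 0.0296), and was the only call of that list.

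The lists of the eye, of liver, gut and pancreas and of blood cells gave 1 faller each for the slope and 0 risers. They held 4, 4 and 6 tested members, with median slopes of -0.40, -0.31 and 0.04, against -0.06 over all names tested. Slope calls made up 18.2% of all names tested, so 1 call in such a list is near that share. The name chi-miR-182, from a cluster made in photoreceptors and hair cells, measured 16720, 13780 and 13400 CPM in the 3 controls, 14450, 13720 and 11870 CPM in source L, 5791, 4829 and 10970 CPM in source M and 3495, 6887 and 7816 CPM in source H. Its 3 source L libraries lay together near control, L3 included (slope -1.38, SE 0.38, adjusted p = 0.0334). The rest of the eye list went both ways and was not called. Slopes there were 0.32 for chi-miR-96, 0.83 for ola-miR-184-5p and -1.125 for ola-miR-204 (adjusted p = 0.582, 0.195 and 0.342). The intestinal ssa-miR-194b-5p went from 13.6 ± 1.15 CPM in control to 7.20 ± 1.79, 4.86 ± 3.01 and 4.46 ± 1.38 CPM (slope -1.55, SE 0.44, adjusted p = 0.0347). It is the scarce name of its family, and ola-miR-194-5p had a slope of -0.27 (adjusted p = 0.394). The miR-194 family total, which has its own scaling, held 103 ± 8.42 CPM in control and 96.1 ± 12.7 in source H (slope -0.14, adjusted p = 0.733). The leukocyte miRNA tgu-miR-155-5p went from 17.4 ± 3.18 CPM in control and 20.4 ± 14.2 in source L to 5.52 ± 1.02 and 4.40 ± 2.35 CPM (slope -2.35, SE 0.68, adjusted p = 0.0347).

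The name ola-miR-148 lay below control already at the lowest dose. It measured 5745, 5151 and 7470 CPM in the 3 controls, 2662, 2799 and 2928 CPM in source L, 2611, 3775 and 4847 CPM in source M and 2952, 2532 and 2041 CPM in source H. All 9 exposed libraries lay below control, and L1, L2 and L3 lay close together between 2662 and 2928 CPM. The log2 fold change in source L was -1.13 (SE 0.27) with an adjusted p of 0.132, the smallest of the members at that dose (-1.14, adjusted p = 0.317, without L3), and source H fell by 1.29 (SE 0.27, adjusted p = 0.0203). The name dre-miR-737-5p also fell, with 91.6, 105 and 93.6 CPM in the 3 controls, 37.5, 56.3 and 20.7 CPM in source L, 27.6, 28.4 and 59.3 CPM in source M and 24.5, 23.9 and 12.8 CPM in source H. No exposed library reached a control (slope -2.05, SE 0.46, adjusted p = 0.0194).

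The only member called as rising along the line was ola-miR-187, with 432, 315 and 383 CPM in the 3 controls, 395, 474 and 781 CPM in source L, 728, 475 and 512 CPM in source M and 805, 765 and 833 CPM in source H. Source M and source H lay above control, and L3 lay at the level of source H. The slope was 0.99 (SE 0.27, adjusted p = 0.0296). Of the other members higher in source H, cfa-miR-181b, of a family abundant in lymphocytes and retina, went from 5700 ± 511 CPM in control to 11300 ± 4734, 15230 ± 1831 and 14080 ± 7205 CPM, with log2 fold changes of 1.42 in source M (SE 0.40, adjusted p = 0.0489) and 1.31 in source H (SE 0.40, adjusted p = 0.0472).

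The name chi-miR-125b-5p, of a family that lowers p53 in zebrafish, rose in source M (1.11, SE 0.30, adjusted p = 0.046) and source H (0.92, SE 0.29, adjusted p = 0.0478), from 237 ± 38.1 CPM in control. The pancreatic tgu-miR-217-5p held 1138, 1146 and 1153 CPM in the 3 controls, 1755, 1337 and 3117 CPM in source L, 2085, 2042 and 2309 CPM in source M and 1749, 2230 and 2914 CPM in source H, with all exposed libraries above control. It rose by 1.00 in source H (SE 0.31, adjusted p = 0.0472). The islet miRNA ipu-miR-375 of the same list fell by 1.00 in source M (SE 0.27, adjusted p = 0.0478), and aca-miR-727-5p rose in source H (1.23, SE 0.29, adjusted p = 0.0277).

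The muscle and heart list gave 0 calls among 3 members by edgeR for the slope or any dose. The most abundant member of all, ssa-miR-206-5p, measured 292300, 170900 and 261700 CPM in the 3 controls, 453300, 399700 and 515900 CPM in source L, 722300, 397200 and 213500 CPM in source M and 355500, 473300 and 520300 CPM in source H. It exceeded every control in all exposed libraries but M5, and its slope was 0.66 (SE 0.43, adjusted p = 0.321). Its family took 21.2 to 54.5% and the miR-9 family 16.0 to 34.7% of the joined counts, so their levels weigh on the scaling of the rest. Among the 5 most abundant members was also ola-miR-21, at 53950 ± 4169 CPM in control and 47800 ± 7304 in source H, with overlapping groups and a slope of -0.30 (SE 0.22, adjusted p = 0.394).

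The remaining lists held few calls, beside slope calls for 18.2% of all names tested. In the list of miR-29, miR-101, miR-148 and miR-152, 1 of 5 members fell with the slope, and in epithelium 0 of 3 were called for the slope and pma-miR-203a-3p, an epidermal miRNA, fell in source H (-0.68, SE 0.21, adjusted p = 0.0472). The miR-181, miR-99 with miR-100 and miR-125, miR-30, miR-430 and p53 and hypoxia lists gave 0 slope calls among 3, 2, 1, 1 and 2 members, with median slopes of 1.07, 0.87, -0.17, -0.06 and 1.14. The p53-responsive aca-miR-34b-5p of the last list measured 11.1, 26.9 and 27.7 CPM in control and 42.7 to 176 CPM in source M and source H (slope 2.19, SE 0.84, adjusted p = 0.099).

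The shape over dose was described by asking which of 4 models with 1 coefficient left the least deviance for a miRNA, namely a straight line or a step between neighbouring doses. Over 104 members the line was best for 16, a step between control and source L for 37, a step between source L and source M for 40 and a step between source M and source H for 11. Of the 34 members called in source M or source H these numbers were 12, 8, 13 and 1. Of the 22 called for the slope they were 12, 3, 7 and 0, though the slope call itself favours the line.

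The line took 99.8% of the deviance between groups for aca-miR-9-5p, 99.0% for ola-miR-106a, 97.9% for ola-let-7e, 95.5% for efu-miR-27b, 94.8% for ccr-miR-454b and 94.7% for ola-miR-130c. For ola-let-7e, efu-miR-27b, ccr-miR-454b and ola-miR-130c the source L mean joined L1 and L2, nearer control, with L3, nearer the higher doses. For ola-miR-106a, L1 lay above L2 and L3. The miR-106 total, which holds this 1 name at its own scaling, had 1350, 613 and 537 CPM there. The share for the line of these names thus does not show a graded level in single libraries. The step between source L and source M took 99.5% for ola-let-7g, 99.1% for sha-miR-92a and 98.7% for hhi-miR-196, where the line took 76.6, 69.8 and 68.4%. The step between control and source L took 98.0% for tgu-miR-217-5p, 91.1% for cfa-miR-181b and 82.6% for ola-miR-148. For tgu-miR-217-5p and cfa-miR-181b all source L libraries lay above control, with L3 far above L1 and L2. Without L3 their log2 fold changes in source L were 0.46 and 0.63 (adjusted p = 0.433 for each by edgeR). Their share for this step thus does not show a full step in each source L library. Group means fell at each dose for 15 members and rose at each dose for 11, and the mean farthest from control was that of source L for 17, source M for 44 and source H for 43. Without L3 the step between source L and source M was best for 64 of the members, up from 40, so L3 bears on which shape is counted.

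**Figure D4:**
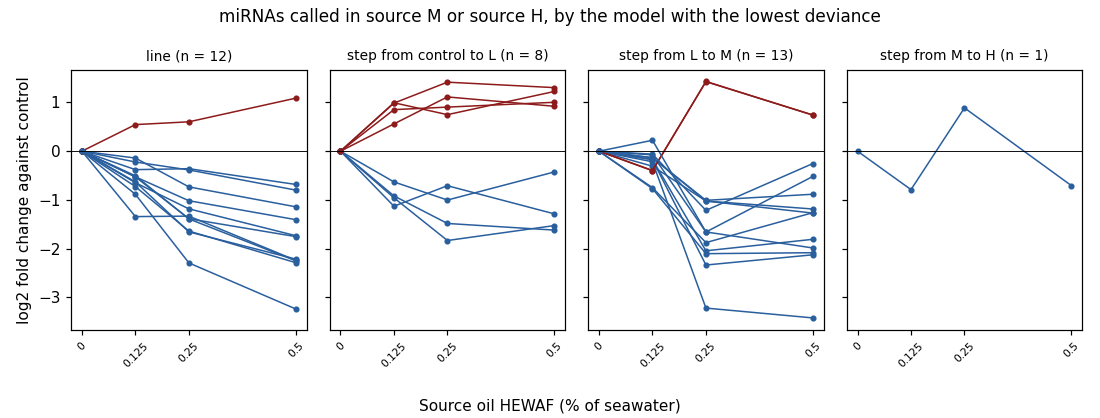
Log2 fold change against control at each source oil concentration for the 34 members called in source M or source H, 1 line per miRNA, in panels by the model with the lowest deviance (red where source H lies above control, blue where below). The line holds 12 members, the step between control and source L 8, the step between source L and source M 13 and the step between source M and source H 1.

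Within the 9 exposed libraries alone, where control has no part, the slope called 0 of 104 members by edgeR (11 at an unadjusted p under 0.05, smallest adjusted p 0.298), and DESeq2 called 1. The name aca-miR-9-5p had a slope of -0.78 (SE 0.19, unadjusted p = 0.00247, adjusted p = 0.298), against -0.79 over the 12 libraries. The name ola-let-7g had -3.96 (SE 1.30, adjusted p = 0.435) and chi-miR-182 -1.39 (SE 0.58, adjusted p = 0.435). For ola-miR-148 it was -0.37 (SE 0.46, adjusted p = 0.934), against -1.07 over the 12, and for ssa-miR-301a-5p -0.60 (SE 0.55, adjusted p = 0.905), against -1.45. For both of these names the 3 source L libraries already lay below every control. The numbers of calls here and over 12 libraries come from different numbers of samples.

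Each source L library was placed between the control mean (0) and the mean of the 6 source M and source H libraries (1), over the 34 members for which these means differ by at least 1 on the log2 scale. The median position was 0.037 for L1, 0.107 for L2 and 0.947 for L3. L1 lay past the midpoint for 9 of the 34, L2 for 4 and L3 for 30. Measured the same way, each against the other libraries, the controls lay at 0.007 to 0.126 and the source M and source H libraries from 0.544 (M5) to 1.14 (M3). Over all 104 tested members L1 was nearer the mean of the higher doses for 42, L2 for 31 and L3 for 84. Leaving out any control, source M or source H library kept the position of L1 between 0.003 and 0.197, of L2 between 0.045 and 0.281 and of L3 between 0.926 and 1.05.

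**Figure D5:**
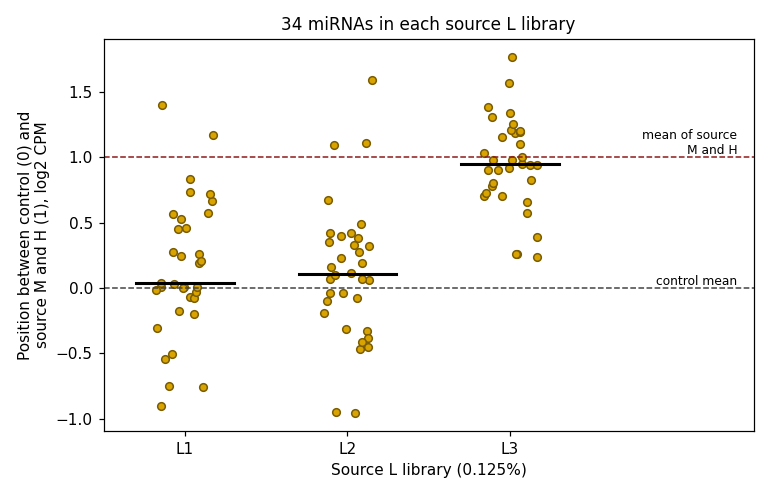
Position of each source L library between the control mean (0) and the mean of the source M and source H libraries (1) on the log2 CPM scale, 1 point for each of 34 miRNAs, with a bar at the median. The medians are 0.037 for L1, 0.107 for L2 and 0.947 for L3.

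The 34 members fell into kinds by which libraries passed the midpoint. For 21 only L3 did so, among them ola-let-7g (L1 -0.08, L2 -0.10, L3 0.95), ola-miR-130c (0.20, 0.07 and 1.21) and ccr-miR-454b (0.03, 0.23 and 1.16). All 3 libraries did so for ola-miR-148, ola-miR-204 and ola-miR-101b-3p, with ola-miR-148 at 1.17, 1.10 and 1.03. The eye miRNA ola-miR-204 measured 5770, 3973 and 4693 CPM in control, and of the exposed libraries L1, L2 and L3 held 2436, 2540 and 919 CPM and M5 8190 CPM. For chi-miR-182, ola-miR-19b and ssa-miR-19c-4-5p no source L library passed it, with chi-miR-182 at 0.01, 0.07 and 0.24. The other 7 had another combination, and all of these names were picked after their positions were seen.

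L3 and the mean of L1 and L2 differed by at least 1 on the log2 scale for 33 of the tested members, lower in L3 for 20 and higher for 13. The widest gaps were those of ola-let-7g (-3.54), ccr-miR-454b (-3.02), ola-let-7e (-2.57), tgu-miR-196 (-2.35), sma-miR-124b-5p (2.28) and sha-miR-92a (-2.17). The name sma-miR-124b-5p rested on 1.61, 1.29 and 7.33 CPM in L1, L2 and L3. Without L3, edgeR called 0 members in source L against control (11 at an unadjusted p under 0.05), 29 in source M against source L (10 higher, 19 lower), 29 for the slope and 34 in source H against control. Without L2 instead, 5 members were called in source L, all higher, and 0 in source M against source L (18 at an unadjusted p under 0.05), while that step had 5 calls without M1 or H1 and 1 without a control, L1, M3, M5, H2 or H3. Which of the source L libraries represents 0.125% was not tested, and no label sets L3 apart.

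Totals of a family sum those of its names that stand in all 3 tables, because reads of a family can be listed under different names in different libraries. The counts of let-7b show this, since ipu-let-7b held 12278 in C4 and 0 in C6 while oar-let-7b held 0 in C4 and 12386 in C6, and both held 9717 in C5. Reads under a name missing for any dose are not in the totals, and their share differed between libraries. The joined names held 5579720 of 7087183 counts in H1 and 6296135 of 6528372 in L3. Of 82 family totals 4 were called for the slope (4.88%), all lower, which were miR-454 (-3.05, SE 0.69, adjusted p = 0.0269), miR-737 (-1.81, SE 0.42, adjusted p = 0.0269), miR-20 (-2.01, SE 0.51, adjusted p = 0.0381) and miR-27 (-1.42, SE 0.38, adjusted p = 0.0409). The totals of miR-454, miR-737 and miR-20, and of miR-92 below, each hold 1 name. They repeat ccr-miR-454b, dre-miR-737-5p, oan-miR-20a-5p and sha-miR-92a under another scaling. By edgeR 0 were called in source L (0%, with 8 at an unadjusted p under 0.05, and 0 with 7 without L3), and without L3 the slope called 12. In source M 4 were called (4.88%), with miR-19 higher and miR-130, miR-301 and miR-92 lower, and in source H 11 (13.4%), 5 higher and 6 lower.

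The miR-301 total measured 3206 ± 663 CPM in control, 1925 ± 550 in source L, 887 ± 138.1 in source M and 1433 ± 456 in source H, and fell by 1.85 in source M (SE 0.34, adjusted p = 0.0112). The miR-34 total rose in source H by 2.34 (SE 0.68, adjusted p = 0.0384), from 19.6 ± 6.84 to 99.3 ± 84.8 CPM, with H3 far above H1 and H2. That total holds the 1 name aca-miR-34b-5p. At the scaling of the single names it was not called in source H (2.02, SE 0.68, adjusted p = 0.0577). Totals carry their own scaling, and at the scaling of the single names 16 were called for the slope, 1 higher and 15 lower. The let-7 total lay in the direction opposite to its called names ola-let-7g and ola-let-7e, with a slope of 1.45 (SE 0.62, adjusted p = 0.107). That total, whose adjusted p misses the threshold, counts some reads more than once, since names such as ipu-let-7b and oar-let-7b have equal counts in several libraries.

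The authors' deposited tables called 23 members in source L, 55 in source M and 52 in source H. Of the members called here, the authors' deposited tables also called 17 of 17 in source M and 26 of 27 in source H, with 0 in the opposite direction. For ola-miR-148 in source L, the authors' deposited table gave a log2 fold change of -0.998 and an adjusted p of 2e-08.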

How the data were processed

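Per the file headers, the authors deposited whole-number read counts per mature miRNA name, 1 table per exposure with 3 exposed and 3 control libraries; control cells were the same in the 3 source oil tables (0 of 917 differed). For aligner, counter and genome the sources used here give no name. In further tables deposited by the authors, each miRNA has a log2 fold change, means of a normalized signal per group, and a p-value raw and adjusted; the submitters' processing notes name DESeq2.

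Here the tables were joined on the names in all 3. Blank control cells (6) were filled from another table, and repeated lines (13 extra) were reduced to the highest count. The edgeR 4.0.16 fits (R 4.3.3) each held all 12 libraries, with separate fits for the line, the group means and the departure. They used TMM scaling, filterByExpr (minimum count 10 and total 15), and robust glmQLFit and glmQLFTest. Adjustment was by Benjamini-Hochberg over all 121 names. DESeq2 1.42.0, other scalings, filters and fits without each library in turn were alternatives. SE is the absolute log2 change over the square root of F. The script was tested on simulated data. The precision follows depth (3157670 to 8660114 counts per library).

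The members, lists and tests were chosen with earlier results of these data known. The miRNAs named are up to 12 higher and 12 lower with the smallest p for the slope, up to 6 called for departure from the line, the 5 most abundant, the 6 with the widest gap of L3, families whose total opposes a called name, and called members of the lists. Other names were chosen after their values were seen. Several names hold the same counts in all 12 libraries (2 of miR-722, 3 of miR-24 and 2 of miR-142), so similar names can share reads.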

Additional observations from a re-analysis of the deposited data

Results flagged for a closer look

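The name gga-miR-30e-5p, which is no member because control libraries held no count, stood at 0 in all 3 controls and was counted in every exposed library. Of the joined names, 0 held a 0 in L1, M1 or H1, against 8 in each control and 4 to 11 in the other exposed libraries. A name counted in control but absent from L1, M1 or H1 is thus not among the joined names, so the reverse pattern could not be seen. The lowest count of the source L libraries was 99, in L1, against 30286 in L2 and 21290 in L3. The lowest count was 9932 in source M, in M1, and 10949 in source H, in H3. The other miR-30 names of the joined tables were oar-miR-30d, a member with a slope of -0.17 (adjusted p = 0.619), and aca-miR-30c-5p, which held 0 in C4 and 25018 in C5. Which name a read of the miR-30 family was listed under was not tested.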

How the results depend on the processing

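Of 420 values of single named miRNAs under alternatives, 330 stayed on their side of the threshold, 86 lost the call (74 on leaving out a library), 4 gained it and 0 of those called changed direction. Leaving out each library gave 0 to 29 slope calls, 0 to 5 for source L, 0 to 43 for source M, 0 to 34 for source H, 0 to 29 for source M against source L, 0 to 2 for source H against source M, 0 to 8 for departure from the line, 0 to 12 for family slopes and 39 to 64 members with a step between source L and source M. RLE size factors gave 9 slope calls (1 higher, 8 lower) and 11 family slopes. Total counts gave 11 slope, 7 source M, 4 source H (2 higher, 2 lower), 0 source H against source M, 0 departure and 11 family calls. Scaling without miR-206 and miR-9 gave 5 for source M against source L and 18 family slopes, with source M at 6 higher and 7 lower and source H at 11 and 11. DESeq2 gave 38 slope, 4 source L, 49 source M, 43 source H, 19 source M against source L, 2 source H against source M and 26 family calls. A prior spread that was not robust left 1 family slope. Fitting the members alone gave 22 slope calls (21 of them shared), 40 in source M (15 higher, 25 lower), 10 for source M against source L and 4 departures, and in source H 40 (17 and 23). Summing repeated lines gave 11 in source M. Chosen after seeing the data, keeping 1 name of each set with the same counts gave 8 slope, 28 source M (20 higher, 8 lower), 24 source H (14 and 10), 5 source M against source L and 3 departure calls and moved the median of all names by 0.25 to 0.36 (log2), and family totals at the scaling of single names gave 16. The cause of these differences was not tested. The 9 exposed libraries gave 0 slope calls without and 0 with a block by column number, which no label gives as a replicate. That block also left 0 for source H against source M (2 members at an unadjusted p under 0.05 in each blocked fit). M5 is the only exposed library of its number, so it bears on no dose estimate of the blocked fits. Exposed libraries of the same number had correlations from -0.51 to 0.44 in their deviations from the group means. Whether they pair was not tested. Members too low for testing, and scarce ones such as ola-let-7e, were limited by depth.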
